A study of Mus musculus with 6 samples.

Results

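Genes for protein folding and stress in the endoplasmic reticulum (ER) were followed in the livers of 6 male C57BL/6 mice, each measured on its own expression array. The control group, 3 livers (mice 13, 21 and 6), made green fluorescent protein (GFP), and the other group, 3 livers (mice 26, 28 and 31), made Sonic Hedgehog (SHH), a secreted signalling protein. The labels list no further treatment. The design text describes hydrodynamic transfection, a fast injection of a large volume of DNA solution whose DNA hepatocytes take up, and asks about fibrosis. The sources used here give neither the age of the mice, nor the promoter driving SHH or GFP, nor the time after injection. The members were a fixed list of 38 genes, each read from the probe set that names no other gene (the brightest on average where there were several), which gave 37 of the 38 among 22180 genes in all. Pdia4, a disulfide isomerase, was not analysed because its probe set also names another gene, and Ero1l was found under its current symbol Ero1a.

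The ER folds proteins that a cell secretes or places in membranes, and hepatocytes, which secrete most plasma proteins, hold a large amount of it. When unfolded proteins build up, 3 membrane sensors respond: ATF6, IRE1 (encoded by Ern1) and PERK (Eif2ak3). ATF6, and the transcription factor XBP1 made through IRE1, are known to raise chaperones and degradation genes. PERK slows translation and favours ATF4, a transcription factor for amino acid supply, redox balance and, through CHOP (Ddit3), cell death. ATF4 is also made in response to other stresses than that of the ER.

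The values are log2 signals, so a difference of 1 is a doubling, and they are not compared between genes. Values for single livers are given in the order of mice 13, 21 and 6 for GFP and of mice 26, 28 and 31 for SHH. Tests measure the spread between these mice only. Of the 37 genes, 35 lay above the median signal of every array (4.32 to 4.40). Sec61b lay below it on every array, where arrays tend to understate a change, and Derl3 lay above it on 5 arrays. Albumin (Alb), the defining hepatocyte product, had the highest signal of all genes on each of the 6 arrays (13.66 to 13.72). In whole liver, fewer cells of a type and less RNA per cell cannot be told apart, and nothing in the labels says whether the mice were handled in 1 batch.

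Promoters are shown first because they show which members carry the DNA letters read by ATF6 or by ATF4. Windows from 250 bases before to 50 bases after the start, taken from RefSeq (GRCm38.p6), were at hand for 31 of the 38 members. Sec11c, Sec61a1, Derl1, Manf, Atf6, Hyou1 and Hspa13 had no window and were not searched. The ER stress element ERSE, to which ATF6 binds together with NF-Y, was searched as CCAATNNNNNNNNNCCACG on both strands. It was found in 9 of those 31 members (29.0%), against 37 of 27025 genes in all (0.137%), and the 37 include the 9. The members were chosen as ER stress and folding genes, so the shares for this and the later elements are a description only and test nothing. The 9 are listed here 5′ to 3′ on the strand of the gene with the match in capitals; where the capitals begin with CGTGG the match lies on the opposite strand, and Hsp90b1 held a pair of matches.
Calr, chr8:84847060-84847108, minus strand: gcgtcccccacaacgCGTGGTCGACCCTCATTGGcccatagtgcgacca
Canx, chr11:50325785-50325833, minus strand: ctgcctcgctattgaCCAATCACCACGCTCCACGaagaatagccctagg
Creld2, chr15:88819505-88819553, plus strand: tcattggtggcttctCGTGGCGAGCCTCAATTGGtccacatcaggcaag
Derl3, chr10:75893227-75893275, plus strand: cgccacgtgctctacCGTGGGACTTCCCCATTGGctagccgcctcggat
Dnajc3, chr14:118937812-118937860, plus strand: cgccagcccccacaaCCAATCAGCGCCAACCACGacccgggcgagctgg
Hsp90b1, chr10:86705623-86705671, minus strand: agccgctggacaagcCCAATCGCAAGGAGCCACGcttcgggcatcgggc
Hsp90b1, chr10:86705518-86705566, minus strand: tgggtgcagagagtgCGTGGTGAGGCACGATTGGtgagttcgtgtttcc
Hspa5, chr2:34772010-34772058, plus strand: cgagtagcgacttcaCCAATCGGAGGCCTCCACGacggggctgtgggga
Pdia6, chr12:17266476-17266524, plus strand: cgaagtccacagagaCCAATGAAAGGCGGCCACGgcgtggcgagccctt
Syvn1, chr19:6046517-6046565, plus strand: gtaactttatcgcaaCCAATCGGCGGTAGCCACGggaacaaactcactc

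The whole window of Creld2, the member with the largest difference between the groups, is given to place its match, which lies 126 to 108 bases before the start.
Creld2, chr15:88819396-88819695, plus strand: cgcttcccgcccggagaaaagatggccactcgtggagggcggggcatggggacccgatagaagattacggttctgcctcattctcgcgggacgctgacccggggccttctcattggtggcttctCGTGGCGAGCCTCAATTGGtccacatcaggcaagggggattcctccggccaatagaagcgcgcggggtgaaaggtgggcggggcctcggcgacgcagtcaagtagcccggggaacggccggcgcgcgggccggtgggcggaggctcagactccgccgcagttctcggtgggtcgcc

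A shorter form, ERSE-II, searched as ATTGGNCCACG, was found in Dnajb11 and Herpud1, 2 of the 31 members (6.45%), against 0.0444% of all genes. The XBP1 element core TGACGTGG was in 0 of the 31 members and 0.714% of all genes. No match says only that these letters are not in these windows. No member held both ERSE and ERSE-II.
Dnajb11, chr16:22857837-22857877, plus strand: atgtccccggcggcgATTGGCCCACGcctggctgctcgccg
Herpud1, chr8:94386362-94386402, plus strand: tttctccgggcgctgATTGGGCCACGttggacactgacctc

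The core TTGCATCA of the element read by ATF4 with C/EBP proteins was found in Chac1 and Herpud1 (6.45% of 31), against 1.03% of all genes. Chac1 is thus the only one of the 6 ATF4 branch members with a match in its window, and Herpud1 held matches to both kinds of element.
Chac1, chr2:119351034-119351071, plus strand: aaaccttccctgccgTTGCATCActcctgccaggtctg
Herpud1, chr8:94386302-94386339, plus strand: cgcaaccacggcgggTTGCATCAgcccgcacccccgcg

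No ER gene passed the test for a difference between SHH and GFP livers. With limma and Benjamini-Hochberg adjustment over all 22180 genes, 0 of the 37 members passed at 0.05 in either direction, as did 0 (0%) of all genes. At an unadjusted p under 0.05, 2 members were higher in SHH livers, Creld2 and Chac1 (5.41% of 37), and 0 were lower. Over all genes those shares were 3.33% higher and 4.01% lower, so the members' count is near the background. The count of 2 became 4 when GFP 13 or SHH 26 was left out, 1 when GFP 6 was, and 0 when SHH 28 was. The genes changed as well. They were Creld2, Eif2ak3, Derl3 and Sdf2l1 without GFP 13, and Creld2, Sdf2l1, Hyou1 and Syvn1 without SHH 26. Chac1 stayed in the count only when GFP 6 or SHH 31 was the mouse left out. The shares of all genes with a mouse left out were not counted.

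Most members nevertheless had the higher mean in SHH livers. This held for 27 of 37 (73.0%), against 43.8% of all genes, and the median difference was 0.13 over the members and -0.03 over all genes. The members' count was 21 without SHH 28 and 32 without GFP 13. The share of all genes was not counted with those mice left out, so these counts have no background beside them. In 1 member, Pdia3, every SHH liver lay above every GFP liver (2.70% of members, 5.26% of all genes). In 0 members did every SHH liver lie below every GFP liver (7.25% of all genes).

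**Figure D1:**
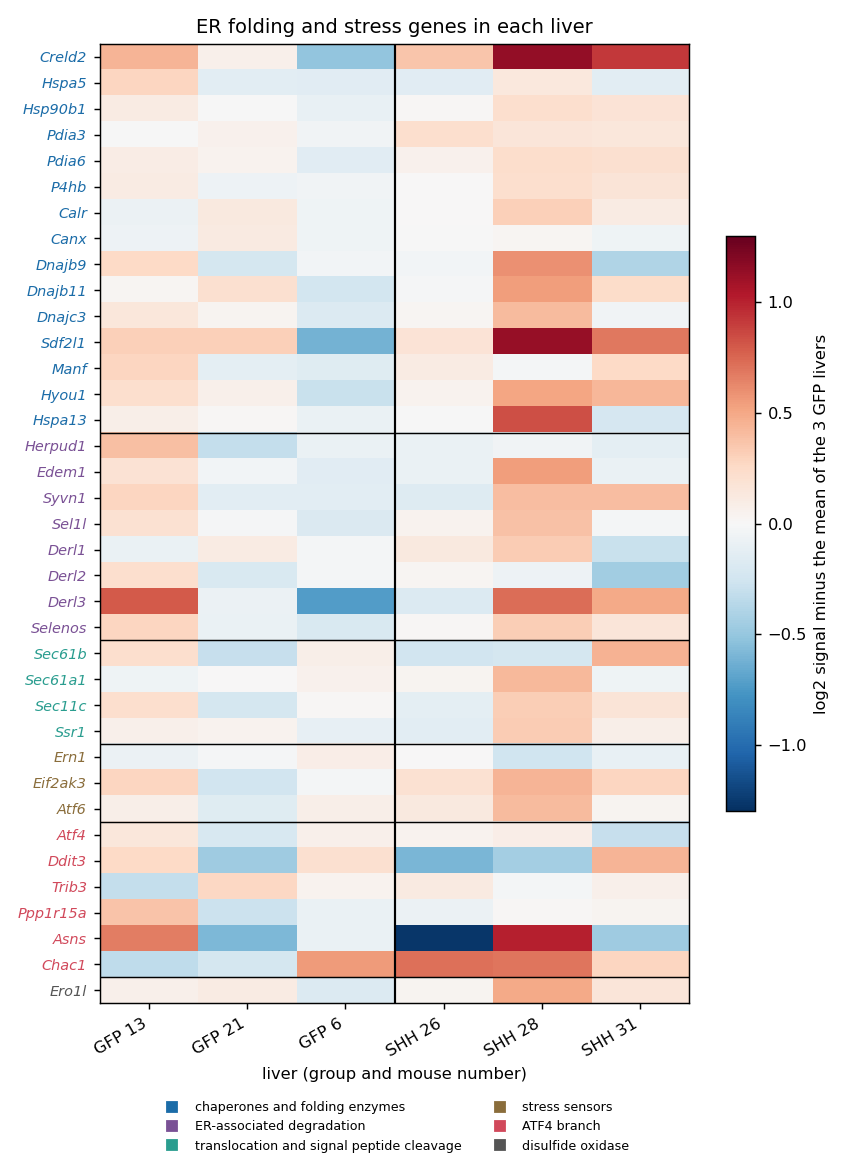
Log2 signal of each of the 37 measured genes (rows, ordered by role) in each of the 6 livers (columns), minus that gene's mean over the 3 GFP livers; red is above and blue below that mean. Creld2 and Sdf2l1 both have SHH 28 as the highest and GFP 6 as the lowest liver, while Asns and Ddit3 of the ATF4 branch follow other orders of livers.

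The order of the single livers was then read. SHH 28 had the highest signal of the 6 livers in 22 of the 37 genes (59.5%), against 17.6% of all genes. GFP 13 was highest in 7 genes, among them Hspa5, Herpud1, Derl3 and Atf4 (18.9%, against 22.3% of all genes). GFP 21 was highest in 2 (16.7% of all genes), GFP 6 in 1 (13.4%), SHH 26 in 2 (11.2%) and SHH 31 in 3 (18.8%). GFP 6 was the lowest liver in 14 genes (37.8%), against 12.9% of all genes, and those included Creld2, Sdf2l1, Hyou1, Dnajb11, Hsp90b1 and Derl3. After a second quantile normalization SHH 28 was highest in 17 of the 37 genes, and the share of all genes was not counted there. The background is also not matched for level. Above the array median on every array lay 35 of the 37 members and 11312 of all 22180 genes.

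**Figure D2:**
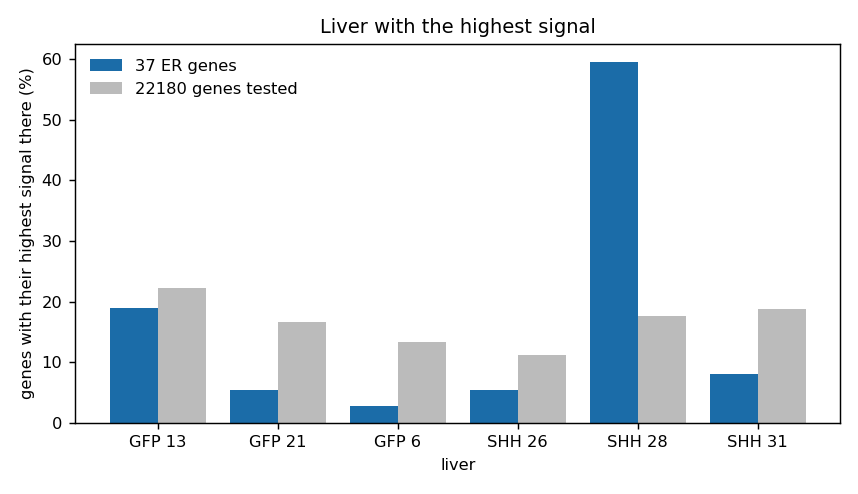
Share of genes with their highest log2 signal in each liver (percent), for the 37 ER genes (blue) and for the 22180 genes tested (grey). SHH 28 holds 59.5% of the ER genes against 17.6% of all genes, while the grey bars run from 11.2% to 22.3%.

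Among the 15 measured chaperones and folding enzymes, 13 had the higher mean in SHH livers and 2, Hspa5 and Canx, the lower, with a median difference of 0.14. Creld2, an ER-resident disulfide isomerase known for its induction by ER stress, had a log2 signal of 9.20, 8.83 and 8.25 across the GFP livers and of 9.12, 9.91 and 9.68 across the SHH livers. SHH 28 and SHH 31 lay above every GFP liver, while SHH 26 lay just below GFP 13. The means were 8.76 ± 0.48 (SD, n = 3) and 9.57 ± 0.40 (SD, n = 3), 1.75-fold apart, with a difference of 0.81 (SE 0.27, 95% interval 0.20 to 1.41; limma, adjusted p = 0.576).

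Sdf2l1, an ER protein that works beside the chaperone BiP, followed the same order of livers at its ends. Its signal was 7.85, 7.84 and 6.91 across the GFP livers and 7.71, 8.67 and 8.22 across the SHH livers. SHH 26 lay below GFP 13 and GFP 21, and GFP 6 stood apart below the other livers. The difference was 0.67 (95% interval -0.01 to 1.34; limma, adjusted p = 0.691), and it was 0.91 without SHH 26.

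Hyou1, a large HSP70-type protein that exchanges the nucleotide of BiP, was measured at 9.65, 9.50 and 9.14 across the GFP livers and at 9.47, 9.94 and 9.86 across the SHH livers. Again SHH 28 and SHH 31 were above every GFP liver and SHH 26 was not. The difference was 0.33 (95% interval -0.08 to 0.74; limma, adjusted p = 0.757). Over all 6 livers Sdf2l1 spanned 1.75 and Creld2 1.65 on the log2 scale, the widest ranges of the chaperone group, while Hyou1 spanned 0.80.

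Hspa5, which encodes BiP, the central ER chaperone and the gene most often used to read ER stress, had a signal of 9.94, 9.53 and 9.52 across the GFP livers and of 9.52, 9.81 and 9.53 across the SHH livers. GFP 13 was the highest liver and SHH 28 the next, and the other 4 lay within a narrow band. The difference was -0.05 (95% interval -0.41 to 0.31; limma, adjusted p = 0.969), and without GFP 13 it was 0.09. Hspa5 and Creld2 both carry an ERSE in the windows shown above, and their differences were -0.05 and 0.81.

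Hsp90b1, the ER form of HSP90, was at 11.97 to 12.18 in GFP livers and 12.09 to 12.29 in SHH livers, a difference of 0.14 (95% interval -0.15 to 0.42). Pdia3, the disulfide isomerase that serves glycoproteins, was at 11.38, 11.44 and 11.33 across the GFP livers and at 11.60, 11.54 and 11.53 across the SHH livers. The groups did not overlap, but the difference was small, at 0.17 (1.13-fold; 95% interval -0.09 to 0.43; limma, adjusted p = 0.798). The disulfide isomerases Pdia6 and P4hb differed by 0.16 and 0.13, with overlapping groups.

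Calr and Canx encode the lectin chaperones calreticulin and calnexin, which hold newly made glycoproteins. Calr differed by 0.14 and was highest in SHH 28 (11.85), while Canx differed by -0.01 and was highest in GFP 21 (11.72). Canx had the narrowest range of all members over the 6 livers, 0.18. Both carry an ERSE in the windows shown.

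The J-domain co-chaperones, which bring clients to BiP, were each highest in SHH 28. Dnajb9 reached 10.01 there and only 9.02 in SHH 31, the lowest of the 6 livers, so that the SHH livers spanned 0.99 and the GFP livers 0.49. Its difference of 0.06 became -0.21 without SHH 28. Dnajb11, the partner of Sdf2l1, was at 9.02, 9.20 and 8.76 across the GFP livers and at 8.97, 9.54 and 9.23 across the SHH livers, a difference of 0.25 (95% interval -0.15 to 0.66). Dnajc3, which also inhibits PERK, differed by 0.13.

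Manf, a secreted BiP-binding protein, was highest in GFP 13 (5.60) and nearly as high in SHH 31 (5.58), a difference of 0.11. Hspa13, an HSP70-type protein of the ER, stood at 8.26 in SHH 28 and between 7.20 and 7.50 in the other 5 livers. Its difference of 0.20 therefore rested on SHH 28, and without that mouse it was -0.11. Ero1l, the oxidase that recharges the disulfide isomerases, ran from 7.26 to 7.55 in GFP livers and from 7.48 to 7.93 in SHH livers, a difference of 0.23 (95% interval -0.12 to 0.58).

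**Figure D3:**
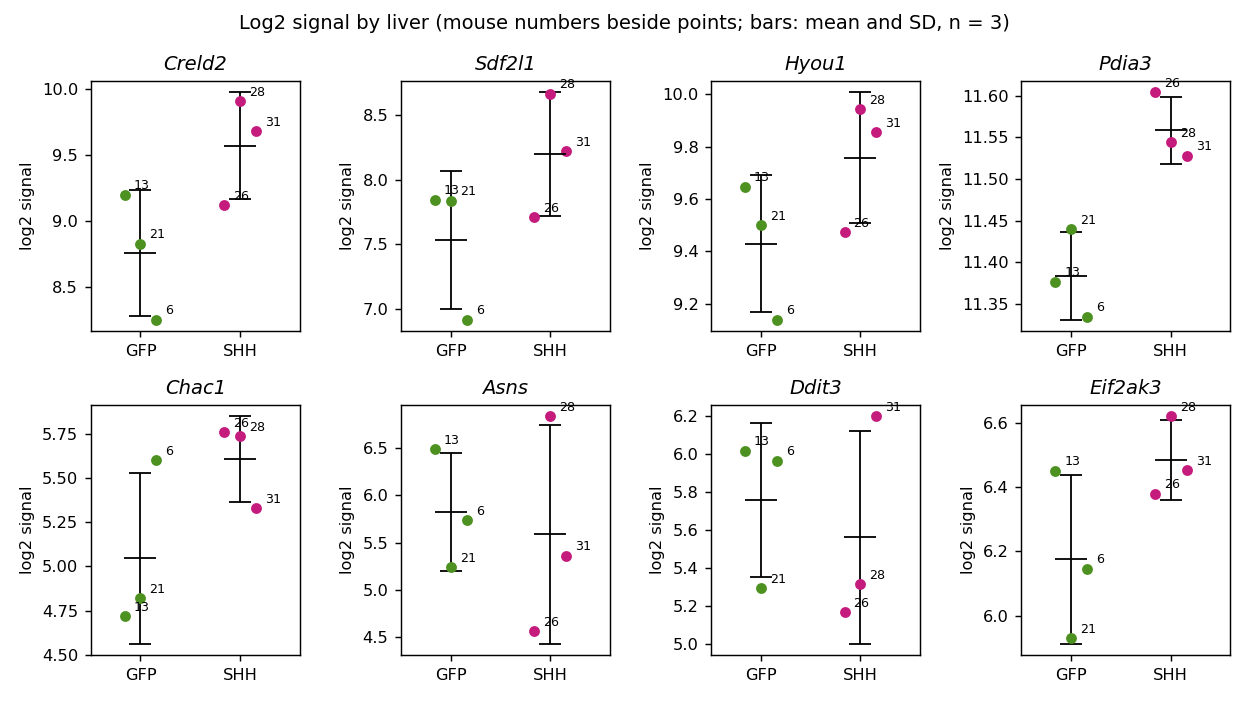
Log2 signal of 8 members in each liver, GFP in green and SHH in pink with mouse numbers beside the points; horizontal marks are means and bars are SD over 3 mice. Creld2, Sdf2l1 and Hyou1 share the order SHH 28, SHH 31, GFP 13 from the top, Pdia3 alone shows no overlap, and Asns spreads furthest, from 4.56 to 6.84, both ends being SHH livers. Each panel has its own vertical scale.

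Genes of ER-associated degradation, which send misfolded proteins back to the cytosol for destruction, had the higher mean in SHH livers in 6 of 8 cases, with a median difference of 0.13. Derl3, a derlin of the channel that carries proteins out, was at 5.66, 4.79 and 4.14 across the GFP livers and at 4.69, 5.59 and 5.36 across the SHH livers. Its GFP livers alone spanned 1.52, all SHH livers lay within their range, and the interval was wide (0.35, 95% interval -0.48 to 1.17; limma, adjusted p = 0.890). Without GFP 6 the difference was -0.01. Derl1 differed by 0.05 and Derl2 by -0.17.

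Herpud1, a scaffold of the degradation complex, was at 11.53 in GFP 13 and between 10.82 and 11.09 in the other 5 livers. The 3 SHH livers lay within 0.08 of each other, and the difference was -0.09 (95% interval -0.49 to 0.32), which became 0.11 without GFP 13. Herpud1 thus lay highest in the same control liver as Hspa5.

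Syvn1, the ubiquitin ligase HRD1, was at 8.35, 7.93 and 7.93 across the GFP livers and at 7.90, 8.47 and 8.48 across the SHH livers. SHH 26 was the lowest liver and GFP 13 lay close to SHH 28 and SHH 31, a difference of 0.21 (95% interval -0.23 to 0.65). Its adaptor Sel1l differed by 0.13, the mannose-trimming factor Edem1 by 0.13 and the selenoprotein Selenos by 0.17. A dimmer probe set of Selenos (mean 2.89, where the lower quartiles of the arrays were 3.13 to 3.22) differed by -0.44, so the direction of Selenos depends on the probe set.

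Of the 4 genes for entry into the ER, 3 had the higher mean in SHH livers, with a median difference of 0.11. Sec61a1, the pore of the translocation channel, was at 10.01 in SHH 28 and between 9.52 and 9.63 in the other 5 livers, and its difference of 0.14 was -0.01 without SHH 28. The channel subunit Sec61b differed by -0.01, the signal peptidase subunit Sec11c by 0.12 and the translocon-associated Ssr1 by 0.09. Sec61a1, Sec11c and Ssr1 were each highest in SHH 28.

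Of the 3 sensors, 2 had the higher mean in SHH livers and 1 the lower. Eif2ak3, encoding PERK, was at 6.45, 5.93 and 6.15 across the GFP livers and at 6.38, 6.62 and 6.45 across the SHH livers. GFP 13 lay among the SHH livers and the other control livers below them all, with a difference of 0.31 (1.24-fold; 95% interval -0.05 to 0.67; limma, adjusted p = 0.739). Atf6 differed by 0.19 (95% interval -0.13 to 0.52) and was highest in SHH 28 (9.63). For Ern1, encoding IRE1, SHH 28 was the lowest liver (7.81) and GFP 6 the highest (8.15), a difference of -0.12 (95% interval -0.40 to 0.17).

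**Figure D4:**
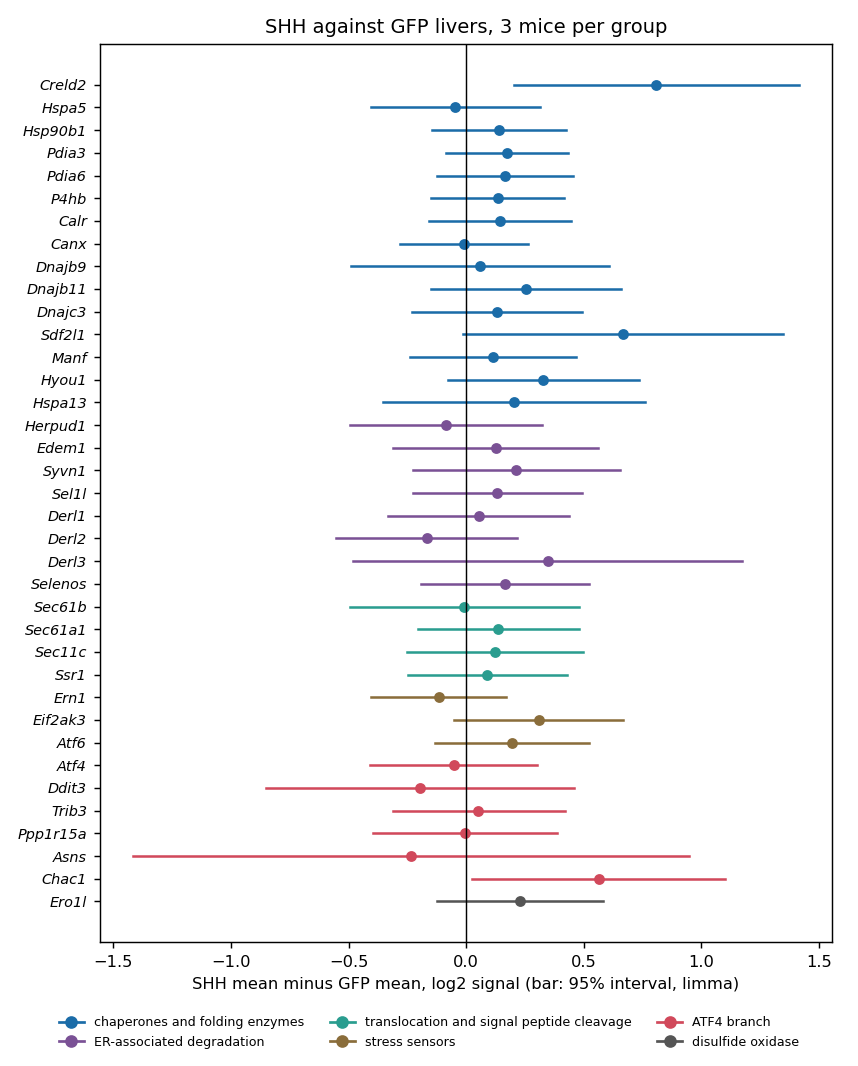
Difference of mean log2 signal, SHH minus GFP (points), with 95% intervals from limma (bars), for the 37 genes coloured by role, 3 mice per group. The intervals of Creld2 and Chac1 lie above 0 and all others include it, and that of Asns is the widest.

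The 6 ATF4 branch genes did not share one direction. Of them 2 had the higher and 4 the lower mean in SHH livers, with a median difference of -0.03. Chac1, which degrades glutathione and is a downstream target of ATF4, was at 4.72, 4.82 and 5.60 across the GFP livers and at 5.76, 5.74 and 5.33 across the SHH livers. GFP 6 lay above SHH 31, and the other control livers lay below all SHH livers. The difference was 0.56 (1.48-fold; SE 0.24, 95% interval 0.03 to 1.10; limma, adjusted p = 0.668).

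Asns, the asparagine synthetase raised by ATF4 in amino acid shortage, was at 6.49, 5.24 and 5.74 across the GFP livers and at 4.56, 6.84 and 5.36 across the SHH livers. Its highest and its lowest liver were both SHH livers, 2.28 apart, the widest range of all members. The difference of -0.24 had a 95% interval of -1.42 to 0.95, and it was 0.28 without SHH 26 and -0.86 without SHH 28.

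Ddit3, encoding the death-linked factor CHOP, was at 6.02, 5.29 and 5.96 across the GFP livers and at 5.17, 5.31 and 6.20 across the SHH livers. SHH 31 was the highest liver and SHH 26 the lowest, so all GFP livers lay within the SHH range (difference -0.20, 95% interval -0.85 to 0.46). Atf4 itself differed by -0.05 (95% interval -0.41 to 0.30), although ATF4 is known to be set largely by translation, which arrays do not measure. The pseudokinase gene Trib3 differed by 0.05. Ppp1r15a, whose product GADD34 restarts translation, differed by -0.01 and, like Hspa5 and Herpud1, was highest in GFP 13 (5.90).

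The chaperone and ATF4 groups were then set against each other in each liver, with each gene first centred on its GFP mean. The mean of the 15 chaperones was 0.15, 0.03 and -0.18 across the GFP livers and 0.05, 0.43 and 0.17 across the SHH livers. GFP 13 lay above SHH 26, so the groups overlapped. The mean of the 6 ATF4 genes was 0.13, -0.25 and 0.12 in the same GFP mice and -0.18, 0.22 and 0.01 in the SHH mice. SHH 28 was the highest liver for both means, and the lowest differed: GFP 6 for the chaperones and GFP 21 for the ATF4 genes.

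The chaperone mean minus the ATF4 mean was 0.01, 0.28 and -0.30 across the GFP livers and 0.23, 0.21 and 0.15 across the SHH livers. The 3 SHH livers lay close together (SD 0.04) within the span of the GFP livers (SD 0.29), and GFP 21 was above all of them. The group means differed by 0.20, which is less than the pooled SD of 0.21, and no test was made because the score is built from chosen members. The difference was 0.05 without GFP 6 and 0.34 without GFP 21. It was 0.31 without Chac1 and 0.12 without Creld2 and Sdf2l1, both chosen after the values were seen.

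**Figure D5:**
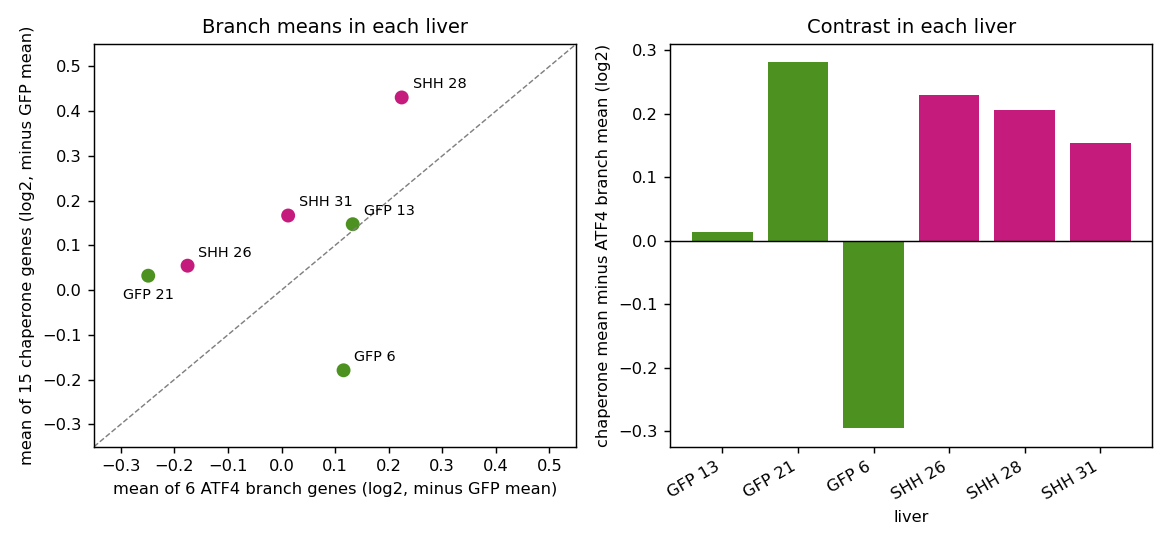
Left, the mean of the 15 chaperone genes against that of the 6 ATF4 branch genes in each liver, both on the log2 scale relative to the GFP mean, with a dashed line of equality; right, their difference in each liver. The SHH bars (pink) stand at 0.15 to 0.23, between the GFP bars (green) of -0.30 and 0.28.

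Members with and without an ERSE in their window were both mixed in direction. Of the 9, 7 had the higher mean in SHH livers, with differences from -0.05 (Hspa5) to 0.81 (Creld2) and a median of 0.14. Of the 21 measured members with a window but no ERSE, 13 had the higher mean, with a median of 0.09 and a highest value of 0.67 (Sdf2l1). Of 20 other measured genes with an ERSE, 6 had the higher mean, with a median of -0.14.

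Further genes of the pathway were read from lists by function. These lists were chosen with earlier results of these data known, so their counts are a description only. Of 42 other ATF6, XBP1 or folding genes measured, 31 had the higher mean in SHH livers (median difference 0.08), and at an unadjusted p under 0.05 there were 4 higher (over all genes, 43.8% had the higher mean, 3.33% were higher at that p and 4.01% lower) and 0 lower. These included Nucb2, a calcium-binding protein (1.67-fold), Dnajc10, an ER disulfide reductase (1.31-fold), and Creb3l2, a membrane-bound transcription factor (1.35-fold). Dnajc10 was at 7.61, 7.62 and 7.66 across the GFP livers and at 7.99, 8.21 and 7.86 across the SHH livers, so its groups did not overlap (limma, adjusted p = 0.576). Of the 42, 4 had every SHH liver above every GFP liver, Dnajc10 and Creb3l2 among them (5.26% of all genes). In 1 of the 42 every SHH liver lay below every GFP liver (7.25% of all genes).

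Xbp1 was at 8.93, 9.57 and 9.22 across the GFP livers and at 9.62, 10.15 and 9.26 across the SHH livers. SHH 31 lay below GFP 21, and the difference was 0.44 (95% interval -0.11 to 0.98; limma, adjusted p = 0.760). Gene-level signals do not separate spliced from unspliced Xbp1 RNA. Of 35 other translocation, glycosylation and transport genes, 27 had the higher mean (median 0.08), and 1 passed an unadjusted p of 0.05, in the higher direction. That gene was Ddost, of the sugar-transferring complex (1.32-fold), whose groups did not overlap (9.18 to 9.31 against 9.40 to 9.93). Of the 35, 3 had every SHH liver above every GFP liver (5.26% of all genes) and 0 had every SHH liver below (7.25% of all genes).

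Of 20 other degradation genes, 9 had the higher and 11 the lower mean (median -0.01); at an unadjusted p under 0.05 there was 1 lower, Selenok (1.27-fold lower). Of 31 other ATF4-regulated genes, 20 had the higher mean (median 0.09), with 1 higher, the transfer RNA synthetase gene Cars (1.26-fold), and 1 lower, the serine synthesis gene Phgdh (1.36-fold lower). The stress genes Atf3 and Sesn2 differed by -0.20 and -0.26. Fgf21, a liver hormone gene that ATF4 is among the factors to raise, differed by 0.23 at a signal below the array median on 5 of 6 arrays. Of 6 further genes of eIF2 kinases and phosphatases, 3 had the higher and 3 the lower mean, with 0 in either direction at an unadjusted p under 0.05. Every SHH liver lay above every GFP liver in 1 of the 20, 2 of the 31 and 1 of the 6 (5.26% of all genes). Every SHH liver lay below in 1, 2 and 1 of them (7.25% of all genes). Cars was among those above and Selenok among those below. With limma and adjustment over all genes, 0 of the genes in these 5 lists passed.

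Genes outside the ER list also differed in level among the SHH livers. Of 23 acute phase genes, most of which encode secreted proteins, 22 had the higher mean in SHH livers (43.8% of all genes). At an unadjusted p under 0.05, 19 were higher (3.33% of all genes), and the median difference was 0.64. This list was chosen with earlier results of these data known, so its shares are a description only and test nothing. The 3 with the smallest p were the metallothioneins Mt1 (8.72-fold; limma, adjusted p = 0.302) and Mt2 (19.7-fold; adjusted p = 0.356), which bind metals inside the cell, and Itih3, a secreted inhibitor subunit (2.40-fold; adjusted p = 0.409). With SHH 26 left out they passed, at adjusted p = 0.00356, 0.000424 and 0.0140 (limma). SHH 26 had the lowest signal of the SHH livers in each of them. With any other mouse left out none of them passed, and the smallest adjusted p was 0.444 (limma, Mt1 without GFP 21). The list mean of the differences, 1.33, lay above its median, and the largest difference in it was 4.30, that of Mt2. The mean of the 23 genes relative to GFP livers was 0.48, 1.98 and 1.52 in SHH mice 26, 28 and 31, where the chaperone mean was 0.05, 0.43 and 0.17. In GFP mice 13, 21 and 6 the acute phase mean was -0.07, 0.14 and -0.07, where the chaperone mean was 0.15, 0.03 and -0.18. Their part in the ER values was not tested.

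Plasma cells carry a very large ER, so their markers were read too. The marker lists were also chosen with earlier results of these data known, so their counts test nothing. Of 11 measured B and plasma cell markers, 4 lay below the array median on all 6 arrays and 10 had the higher mean in SHH livers (43.8% of all genes). Their summed linear signal was 417 to 438 in GFP livers and 503 to 861 in SHH livers, and their median difference was 0.11. Ighm, an antibody heavy chain gene named after its values were seen, was at 6.70 to 7.23 in GFP livers and 7.67 to 8.85 in SHH livers (limma, adjusted p = 0.409). Jchain, which joins secreted antibodies, was at 4.09 to 4.55 in GFP livers and 5.36 to 6.02 in SHH livers (limma, adjusted p = 0.174, and 0.0162 with SHH 26 left out). Jchain did not pass with any other mouse left out (limma, smallest adjusted p = 0.346). Its signal lay below the array median in GFP 13 (4.22) and GFP 21 (4.09) and above it on the other 4 arrays. Mzb1, the plasma cell chaperone, was at 4.71 to 5.02 and 4.68 to 5.15 and so overlapped. Ighm and Jchain had the largest differences of the 11 markers, 1.38 and 1.46. The others ran from -0.04 (Tnfrsf17) to 0.36 (Irf4). A linear sum gives most weight to bright genes such as Ighm, so the summed signal does not stand for all 11 markers. Neutrophil markers (11 of 11) and macrophage markers (12 of 12) also had higher means in SHH livers, against 43.8% of all genes. Among the neutrophil markers 3 lay below the array median on all 6 arrays and only 1 above it on all 6. Among the macrophage markers 0 lay below it on all 6 and 11 above it on all 6. Summed neutrophil signals were 140 to 160 in GFP and 171 to 350 in SHH livers. Summed macrophage signals were 1046 to 1845 and 1550 to 3166. The neutrophil gene S100a9 was at 3.39 to 3.60 and 4.09 to 6.03 (adjusted p = 0.409 in limma, and 0.00180 with SHH 26 left out). S100a9 did not pass with any other mouse left out (limma, smallest adjusted p = 0.599). Its signal lay above the array median on only 2 of the 6 arrays. No marker is listed at 0, since log2 array signals have no true zero. Hepatocyte markers differed by a median of 0.01 and stellate cell markers by 0.12. The part of these cells in the ER values was not tested.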

How the data were processed

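Livers of 3 GFP and 3 SHH mice were measured, 1 array per mouse. The deposited values are log2 signals per probe set that the authors made with RMA, per the submitters' processing notes, which corrects background, equalises the arrays and combines probes; its version is not stated in those notes. Of 41345 probe sets, 23521 named 1 gene, 1814 several and 16010 none here; symbols were compared through gene identifiers with RefSeq (GRCm38.p6), and 0 changed.

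The limma test (version 3.58.1, R 4.3.3; lmFit and eBayes, two-sided, no covariate, no filter) was fitted to all 22180 genes with Benjamini-Hochberg adjustment at 0.05, and was tested on simulated data. Intervals are 95% intervals of that fit. The number of arrays limits the precision, and the labels do not say whether arrays shared a batch.

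All members were named, as were Xbp1, Atf3, Sesn2, Fgf21, Jchain, Mzb1, S100a9, Alb and, per pathway list and direction, up to 3 genes with the smallest unadjusted p under 0.05. The members, lists and alternatives were chosen with earlier results of these data known. Other normalizations, probe set rules, level filters, priors, array weights and each mouse left out were tried. Protein sequences were not analysed here.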

Additional observations from a re-analysis of the deposited data

How the results depend on the processing

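The 2 members higher at an unadjusted p under 0.05 became 1 with array weights, 3 with equal array medians or a trended prior, and 0 to 4 with 1 mouse left out. Chac1 was not among those higher with array weights or after a second quantile normalization. The 0 lower members became 1 with the probe set of the largest interquartile range (Selenos), and 0 to 1 with 1 mouse left out. Over all genes the 0 higher and 0 lower genes past the adjusted threshold became 0 to 30 higher and 0 to 16 lower with 1 mouse left out, the 30 and 16 arising without SHH 26, while 0 members passed under every setting run. The chaperone minus ATF4 difference ran from 0.05 to 0.34. The settings without Chac1 and without Creld2 and Sdf2l1 were chosen after seeing the data.

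Of 767 gene values under alternatives, 723 kept direction and side of the threshold, 39 reversed and 5 newly passed (Mt1, Mt2, Itih3, Jchain and S100a9, all without SHH 26). The 20 genes that reversed had differences, as reported, of at most 0.35 in size. Canx was 0.013 with equal array medians and 0.0062 with array weights. Selenos was -0.14 with the mean of its probe sets and -0.44 with the more variable one. Sec61b was 0.023 with that mean, 0.0080 after a second quantile normalization and 0.014 with equal medians. Ppp1r15a was 0.018 with equal medians, and Alb was -0.0000 after the second quantile normalization. With each mouse left out in turn, the lowest and highest values were as follows: Hspa5 -0.14 to 0.092, Canx -0.043 to 0.049, Dnajb9 -0.21 to 0.28, Dnajc3 -0.008 to 0.22, Hspa13 -0.11 to 0.42, Herpud1 -0.24 to 0.11, Edem1 -0.086 to 0.23, Derl1 -0.082 to 0.23, Derl3 -0.015 to 0.74, Sec61b -0.24 to 0.11; Sec61a1 -0.0082 to 0.23, Ssr1 -0.029 to 0.20, Atf4 -0.16 to 0.067, Trib3 -0.10 to 0.19, Ppp1r15a -0.14 to 0.18, Asns -0.86 to 0.28, Atf3 -0.52 to 0.16, Mzb1 -0.0052 to 0.23, Alb -0.0003 to 0.027. The cause was not tested.

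No paired analysis was possible because the mouse numbers differ between the groups. With 3 arrays per group the number of arrays limits the precision, and Sec61b lay below the array medians throughout. The protein sequence comparison was not run.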
